A study of Homo sapiens with 30 samples.

Results

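Chemokines are small secreted proteins that draw leukocytes towards their source. The 5 transcripts described here are the CC chemokines CCL2, CCL7, CCL5 and CCL20 and the CX3C chemokine CX3CL1, also called fractalkine. They are all the rows of the deposited count table that carry one of these 5 symbols, out of 63138 genes, and each symbol had 1 row. CCL2 and CCL7 act on CCR2, the receptor of inflammatory monocytes. CCL5 acts on receptors of T cells and monocytes, CCL20 on CCR6 of Th17 and dendritic cells, and CX3CL1 on CX3CR1 of microglia, monocytes and cytotoxic lymphocytes. At the blood-brain barrier the endothelium makes several of these proteins and shows them to blood cells on its surface heparan sulfate. CX3CL1 is unlike the others, since it is made as a membrane protein with a mucin stalk, holds leukocytes by itself, and becomes soluble once the proteases ADAM10 or ADAM17 cut it. NF-κB is the best known activator of their promoters, with AP-1 and interferon regulatory factors acting at some of them.

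RNA was sequenced from hCMEC/D3, an established human line grown from the endothelium of brain microvessels and made immortal, in 30 libraries that fall into 10 groups of 3. In the direct groups cells were kept for 12 h in serum-free medium (Control), or received one agent for that time. The agents were epinephrine (200 nM), the complement fragment C5a (50 ng/mL), IL-1β (10 ng/mL) and TNFα (25 ng/mL). In the vesicle groups the same line was given extracellular vesicles (EVs) collected from the medium of cells kept under each of those conditions (EV-Control, EV-TNFα, EV-IL-1β, EV-C5a and EV-Epinephrine), also labelled 12 h, and the vesicle dose is not given in the sources used here. All groups therefore rest on 1 cell line, and the labels do not say whether the 3 libraries of a group came from separate cultures, so p-values measure only the spread between these libraries, which may be technical.

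Libraries held 16643961 to 22112326 counts, 14340 to 15196 genes with at least 10 counts, and 1.72% to 3.14% mitochondrial counts. Levels are given as CPM, counts scaled to a common library size after TMM factors were fitted over all 30 libraries. TNFα libraries stood apart in these factors, at 0.842 to 0.861 against 0.974 to 1.05 in the other direct libraries. Of 11 endothelial markers 10 were above 1 CPM in some group, among them PECAM1 at 148 to 271 CPM by group, while EMCN stayed at or below 0.580 CPM. The 9 leukocyte markers were near 0, with the highest group means at 2.00 CPM for CD14, 1.30 CPM for PTPRC and CD3E, AIF1 and LYZ all at or below 0.0716 CPM. Their summed level was 1.73 to 2.61 CPM in TNFα libraries against 3.58 to 4.18 CPM in Control libraries. Of 6 pericyte and mural markers 5 were above 1 CPM in some group, from CSPG4 at 267 to 430 CPM down to ACTA2 at 1.92 to 3.04 CPM, while KCNJ8 stayed at or below 0.0508 CPM. Of 5 epithelial markers KRT18 (155 to 336 CPM) and KRT8 (12.4 to 23.3 CPM) were expressed, and EPCAM and CDH1 stayed at or below 0.191 CPM.

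CCL2 lies at chr17:34255218-34257203 and CCL7 at chr17:34270221-34272242, both on the plus strand of GRCh38 in the GENCODE 29 annotation, with 13.0 kb between them. CCL11, CCL8, CCL13 and CCL1 follow in the same cluster. CCL5 lies further along the chromosome at chr17:35871491-35880793 on the minus strand. CCL20 lies at chr2:227805739-227817564 and CX3CL1 at chr16:57372458-57385048, both on the plus strand. An antisense gene, ENSG00000270240, overlaps CCL5, and whether counting used the strand is not given in the sources used here, but that gene never had more than 2 counts in a library.

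The promoters of CCL7 and CCL20 are shown because the RefSeq promoter table of GRCh38.p14 matched only these 2 of the 5 symbols. CCL2, CCL5 and CX3CL1 were not matched. Like the others, both transcripts were higher with TNFα and with IL-1β than in Control, but in opposite order of the cytokines. Each line gives the 250 bases before the annotated start, 5′ to 3′, on the plus strand, at chr2:227813592-227813841 for CCL20 and chr17:34269971-34270220 for CCL7. The RefSeq start of CCL20 lies inside the GENCODE gene, which begins further upstream. Capitals mark matches to the NF-κB consensus, the AP-1 pattern TGANTCA, the cyclic AMP element TGACGTCA and the TATA box TATAAA. The AP-1 pattern left its middle base N open to any letter. Each was searched on both strands of the 300-base window that runs on 50 bases past the start.
CCL20: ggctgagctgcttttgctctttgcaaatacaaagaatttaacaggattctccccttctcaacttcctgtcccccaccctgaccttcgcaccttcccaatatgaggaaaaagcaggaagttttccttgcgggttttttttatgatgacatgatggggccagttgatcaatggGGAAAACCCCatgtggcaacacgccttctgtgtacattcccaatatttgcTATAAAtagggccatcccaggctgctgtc
CCL7: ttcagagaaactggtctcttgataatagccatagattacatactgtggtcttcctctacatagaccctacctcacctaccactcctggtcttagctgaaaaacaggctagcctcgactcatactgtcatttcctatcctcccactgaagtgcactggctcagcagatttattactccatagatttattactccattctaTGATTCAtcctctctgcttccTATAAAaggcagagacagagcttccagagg

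In CCL20 the NF-κB consensus matched at positions -79 to -70 from the start, read on the minus strand, and the TATA box at -29 to -24. In CCL7 the loose AP-1 pattern matched at -51 to -45, as TGATTCA with a T at the open middle base. The TATA box of CCL7 matched at -30 to -25. The 2 windows thus shared a TATA box at nearly the same place and no other match. Among 35116 promoters of the same length 11.3% held the NF-κB match, 7.71% the AP-1 match, 11.5% the TATA box and 1.85% the cyclic AMP element, which neither promoter held. These are letters in a window, and no binding was measured.

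CCL2, CCL5, CCL20 and CX3CL1 rose with direct TNFα, where 52.7% of 15908 tested genes were called at an adjusted p under 0.05 and 27.5% were higher. CCL7 went from almost no counts to a low level, and since it entered the test only through the groups where it is high, it is described by its counts. CCL2 rose the furthest in absolute level and CX3CL1 the furthest in fold among those with counts in every Control library. With IL-1β the same 4 rose as well, against 46.6% of genes called and 24% higher, but to a lower level than with TNFα, while CCL7 reached a higher one. In bulk RNA, more cells with a transcript and more transcript per cell cannot be told apart.

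**Figure D1:**
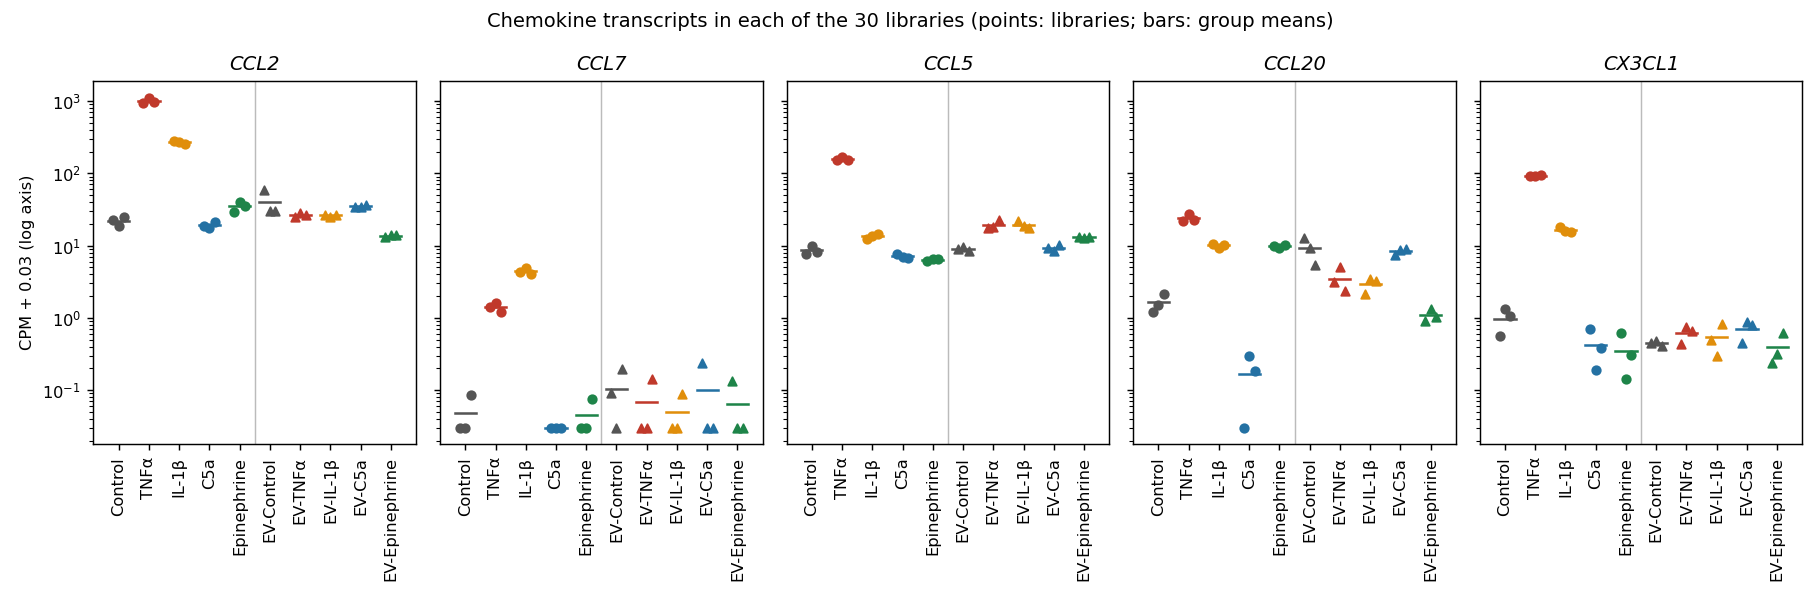
CPM plus 0.03 on a log axis for each chemokine, with every library of the 10 groups as a point (circles for direct groups, triangles for vesicle groups) and each group mean as a bar. TNFα and IL-1β libraries stand above all others for CCL2, CCL7 and CX3CL1, while CCL20 also stands high in epinephrine and in EV-Control and EV-C5a libraries.

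CCL2, the main monocyte attractant, stood at 22.3, 18.8 and 25.0 CPM in the 3 Control libraries. TNFα libraries held 947, 1118 and 984 CPM. IL-1β libraries held 281, 270.1 and 253 CPM. The 3 groups did not overlap, as was so for 59.6% of genes between TNFα and Control and 56.3% between IL-1β and Control. The rise was 46.1-fold with TNFα (95% CI 37.8 to 56.3, edgeR adjusted p = 1.37e-12) and 12.2-fold with IL-1β (10.1 to 14.8, edgeR adjusted p = 1.53e-10). Between the cytokines, IL-1β was 3.77-fold lower than TNFα (log2 difference -1.91 ± 0.11 SE, edgeR adjusted p = 1.42e-08).

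CCL7, the neighbour of CCL2 that shares its receptor, was the rarest of the 5. Its raw counts in Control libraries were 0, 0 and 1, and a count of 0 allows up to 3. In TNFα libraries they were 21, 29 and 20, and in IL-1β libraries 83, 93 and 76. Counts in the cytokine groups did not overlap with Control or with each other. Summed over libraries and scaled, CCL7 was 76.2 times higher with TNFα than in Control, with an exact interval of 13.2 to 3052 that covers counting error only and rests on 1 Control count, and 245 times higher with IL-1β (43.5 to 9696). IL-1β gave 3.21 times the CCL7 of TNFα (2.45 to 4.24). Between the cytokines the fitted difference passed the test (edgeR adjusted p = 4.81e-05), but these were also the groups through which CCL7 entered it.

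CCL5, an attractant of T cells and monocytes that is also induced in antiviral responses, stood at 7.67, 9.72 and 8.16 CPM in Control. TNFα libraries held 155, 166 and 152 CPM, and IL-1β libraries 12.2, 13.4 and 14.3 CPM. TNFα libraries were thus an order of magnitude above both other groups, while IL-1β libraries lay just above Control without overlap. CCL5 rose 18.5-fold with TNFα (95% CI 16.4 to 20.8, edgeR adjusted p = 5.04e-31) and 1.57-fold with IL-1β (1.37 to 1.81, edgeR adjusted p = 1.01e-06). Of the 5 transcripts CCL5 had the widest gap between the cytokines, 11.8-fold lower with IL-1β (log2 difference -3.56 ± 0.08 SE, edgeR adjusted p = 8.15e-29).

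CCL20, the only known chemokine ligand of CCR6, stood at 1.16, 1.495 and 2.14 CPM in Control. TNFα libraries held 22.04, 27.4 and 22.3 CPM, and IL-1β libraries 10.6, 9.35 and 10.3 CPM. All 3 groups were separate, and the cytokines lay closer together for CCL20 than for CCL2, CCL5 or CX3CL1. CCL20 rose 14.99-fold with TNFα (95% CI 11.7 to 19.2, edgeR adjusted p = 3.37e-20) and 6.36-fold with IL-1β (4.87 to 8.31, edgeR adjusted p = 4.46e-14). The level with IL-1β was 2.36-fold lower than with TNFα (edgeR adjusted p = 1.24e-09).

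CX3CL1, the membrane-bound chemokine, stood at 0.529, 1.28 and 1.01 CPM in Control, from 10, 24 and 18 counts. TNFα libraries held 92.9, 91.1 and 93.5 CPM, and IL-1β libraries 18.3, 16.0 and 15.3 CPM. The TNFα libraries lay close together and stood clear of IL-1β, which stood clear of Control. CX3CL1 rose 97.8-fold with TNFα (95% CI 78.1 to 123, edgeR adjusted p = 2.15e-27) and 17.6-fold with IL-1β (13.5 to 22.9, edgeR adjusted p = 9.46e-19). It was 5.57-fold lower with IL-1β than with TNFα (edgeR adjusted p = 4.69e-20).

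Between IL-1β and TNFα 41.4% of genes were called, 19.9% higher and 21.4% lower with IL-1β, and libraries did not overlap for 51.5%. CCL2, CCL5, CCL20 and CX3CL1 were all called, each lower in IL-1β. CCL7 was higher in IL-1β but is left out of this tally, since it entered the test only through these cytokine groups. Both cytokines were compared with the same 3 Control libraries, so the rises are not independent of each other. To compare the genes with each other, CPM were divided by the length of the annotated exons in kb. Per kb, Control cells held 11.1 ± 1.57 CPM of CCL2 (SD, n = 3), 5.63 ± 0.708 of CCL5, 1.00 ± 0.311 of CCL20, 0.157 ± 0.0637 of CX3CL1 and 0.0217 ± 0.0376 of CCL7. With TNFα they held 512 ± 45.4 CPM per kb of CCL2, 104 ± 5.20 of CCL5, 15.5 ± 0.207 of CX3CL1, 14.99 ± 1.88 of CCL20 and 1.59 ± 0.236 of CCL7. CCL2 was thus the most abundant of the 5 per length in both groups, and CX3CL1 and CCL20 lay within their spread of each other with TNFα. Exon length here is that of all annotated transcripts joined, so these levels depend on the annotation.

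C5a and epinephrine did not move the transcripts together. With C5a, 2 of the 4 passed the test, both lower, against 22.6% of genes called and 10.8% lower, and 40.4% with no overlap of libraries. With epinephrine 2 were higher and 2 lower, against 25.2% called, 13.5% higher and 11.8% lower, and 33.9% with no overlap. CCL20 had the largest called difference with either, down with C5a and up with epinephrine.

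CCL20 had 0, 5 and 3 counts in the C5a libraries against 22, 28 and 38 in Control, that is 0, 0.265 and 0.151 CPM. In epinephrine libraries it stood at 9.97, 9.22 and 10.1 CPM, above all Control libraries and in the range seen with IL-1β. It was 11.0-fold lower with C5a (log2 difference -3.46 ± 0.43 SE, edgeR adjusted p = 1.66e-07) and 6.17-fold higher with epinephrine (95% CI 4.72 to 8.06, edgeR adjusted p = 5.01e-13). Without C5a replicate 2, which holds 5 of the 8 C5a counts, the C5a difference was -4.25 (edgeR adjusted p = 5.68e-07). CCL20 was therefore the one transcript of the 5 called in all 4 stimulus comparisons without any overlap of libraries.

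CCL2 stood at 29.1, 40.1 and 35.1 CPM with epinephrine, above all Control libraries, and at 18.5, 17.3 and 21.2 CPM with C5a, which overlapped Control. The rise with epinephrine was 1.59-fold (95% CI 1.29 to 1.95, edgeR adjusted p = 0.00335), and the C5a difference did not pass (log2 -0.20, 95% CI -0.52 to 0.12, edgeR adjusted p = 0.373). CCL5 moved the other way with epinephrine, at 6.09, 6.45 and 6.52 CPM, below all Control libraries. That fall was 1.33-fold (log2 difference -0.41 ± 0.11 SE, edgeR adjusted p = 0.00502), and without Control replicate 2 it no longer passed (edgeR adjusted p = 0.0743). With C5a, CCL5 stood at 7.55, 6.83 and 6.78 CPM, below every Control library, and the difference of -0.26 did not pass (edgeR adjusted p = 0.0802).

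CX3CL1 had 13, 3 and 7 counts with C5a and 11, 2 and 6 with epinephrine, and in both groups the highest library overlapped the lowest of Control. The log2 difference was -1.22 ± 0.40 (SE) with C5a (edgeR adjusted p = 0.0248) and -1.50 ± 0.42 with epinephrine (edgeR adjusted p = 0.00732). At such counts single libraries moved the call. The C5a call was lost without Control replicate 2 (edgeR adjusted p = 0.178), Control replicate 3 (0.0741), C5a replicate 2 (0.155) or C5a replicate 3 (0.0884), and the epinephrine call without Control replicate 2 (0.0755) or in a fit of those 2 groups alone (0.0566). Without the highest library of each group, the differences were -1.83 (C5a replicate 1 left out) and -2.16 (epinephrine replicate 1 left out). CCL7 had 0, 0 and 0 counts with C5a and 0, 0 and 1 with epinephrine, so no fold is given.

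The vesicle groups were compared with EV-Control, cells given vesicles from unstimulated cells. CCL5 was higher and CCL20 lower with EV-TNFα, with EV-IL-1β and with EV-Epinephrine, and CCL2 was lower with EV-Epinephrine. CX3CL1 changed in none of the 4 comparisons and CCL7 was too rare to be tested, so that 4 of the 5 transcripts entered these tests. With EV-TNFα 1 was higher and 1 lower, against 13.3% of 15918 genes called, 5.9% higher and 7.42% lower. With EV-IL-1β it was again 1 and 1, against 14.6% called, 6.49% higher and 8.14% lower. With EV-Epinephrine 1 was higher and 2 lower, against 19.7% called, 9.12% higher and 10.5% lower. With EV-C5a the 4 tested transcripts gave 0 calls, also under DESeq2, none had an unadjusted p under 0.05, and 0.0503% of all genes were called, 0.0126% higher and 0.0377% lower.

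CCL5 stood at 8.88, 9.48 and 8.49 CPM in EV-Control. EV-TNFα libraries held 17.6, 18.2 and 22.5 CPM, EV-IL-1β libraries 21.6, 18.8 and 17.6 CPM, and EV-Epinephrine libraries 13.0, 12.7 and 13.2 CPM. None of the 3 groups overlapped with EV-Control, whereas EV-TNFα and EV-IL-1β overlapped with each other. Libraries did not overlap with EV-Control for 27.1% of genes with EV-TNFα, 28.5% with EV-IL-1β and 34.1% with EV-Epinephrine. CCL5 rose 2.16-fold with EV-TNFα (95% CI 1.85 to 2.52, edgeR adjusted p = 1.64e-11), 2.16-fold with EV-IL-1β (1.85 to 2.52, edgeR adjusted p = 2.26e-11) and 1.45-fold with EV-Epinephrine (1.23 to 1.70, edgeR adjusted p = 4.15e-04). EV-C5a libraries held 9.21, 8.48 and 10.2 CPM, within and around the EV-Control range, and the interval of that difference was 0.877-fold to 1.23-fold.

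CCL20 stood at 12.6, 9.32 and 5.31 CPM in EV-Control, a spread of more than 2-fold within the group. EV-TNFα libraries held 3.05, 4.96 and 2.33 CPM and EV-IL-1β libraries 2.14, 3.44 and 3.19 CPM. EV-Epinephrine libraries held 0.883, 1.31 and 0.992 CPM. All 9 lay below the lowest EV-Control library, EV-TNFα replicate 2 only just. CCL20 was 2.61-fold lower with EV-TNFα (log2 difference -1.38 ± 0.31 SE, edgeR adjusted p = 0.0089), 3.08-fold lower with EV-IL-1β (-1.62 ± 0.32, edgeR adjusted p = 0.00352) and 8.49-fold lower with EV-Epinephrine (-3.09 ± 0.38, edgeR adjusted p = 5.56e-05). In a fit of EV-TNFα and EV-Control alone the first of these no longer passed (edgeR adjusted p = 0.159). EV-C5a libraries, at 7.49, 8.64 and 8.91 CPM, lay inside the EV-Control range.

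CCL2 stood at 59.2, 29.9 and 30.1 CPM in EV-Control, so that replicate 1 stood far above the other two. EV-Epinephrine libraries held 13.0, 13.9 and 14.2 CPM, below all other groups of the study. EV-TNFα libraries held 24.7, 28.2 and 26.3 CPM and EV-IL-1β libraries 26.6, 25.1 and 26.8 CPM, all below the lowest EV-Control library. CCL2 was 2.89-fold lower with EV-Epinephrine (log2 difference -1.53 ± 0.24 SE, edgeR adjusted p = 0.00108). Without EV-Control replicate 1 the difference was -1.13 (edgeR adjusted p = 1.66e-16), and in a fit of the 2 groups alone it did not pass (edgeR adjusted p = 0.0631). The differences of -0.59 for EV-TNFα and -0.60 for EV-IL-1β did not pass (edgeR adjusted p = 0.125 and 0.114), and without EV-Control replicate 1 they were -0.19 and -0.20. The second of them passed with DESeq2 (adjusted p = 0.0480), in a fit of all 30 libraries (edgeR adjusted p = 0.0444) and without EV-Control replicate 3 (edgeR adjusted p = 0.0477).

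**Figure D2:**
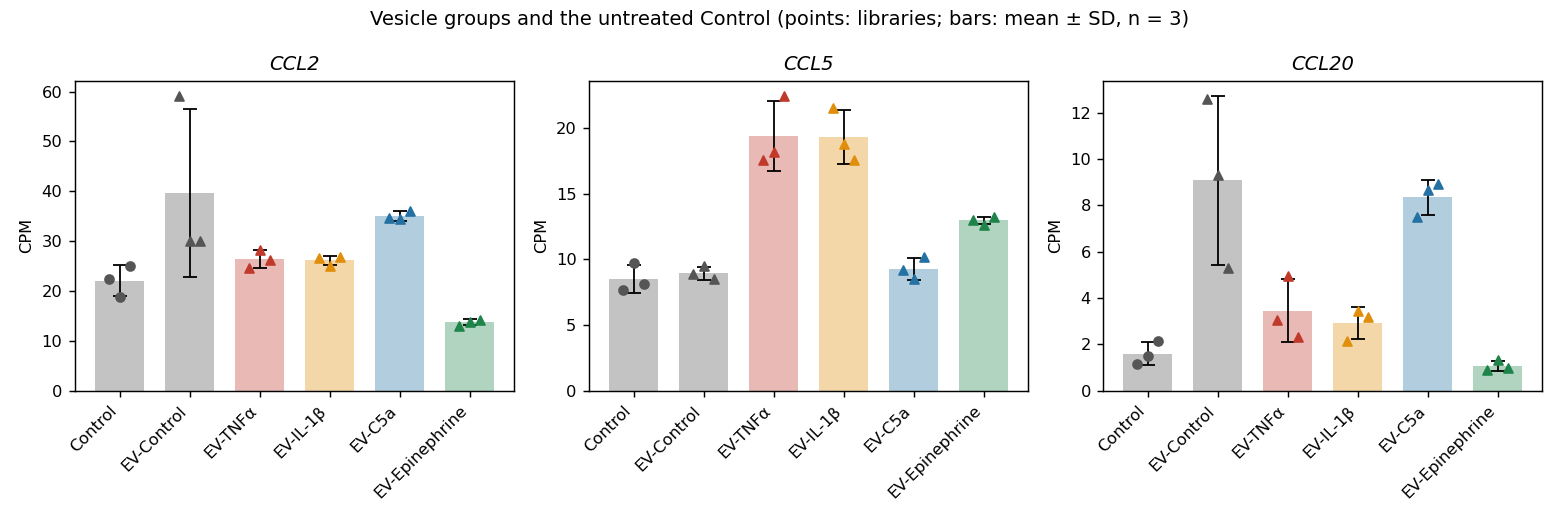
CPM of CCL2, CCL5 and CCL20 on linear axes in Control and the 5 vesicle groups, with libraries as points and bars as mean ± SD (n = 3). CCL5 is raised in EV-TNFα, EV-IL-1β and EV-Epinephrine, CCL20 is lowered in the same 3 groups, and 1 EV-Control library stands high for CCL2.

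CX3CL1 stayed between 4 and 16 counts in all 15 vesicle libraries. Its log2 differences from EV-Control were 0.48 with EV-TNFα (95% CI -0.59 to 1.55), 0.28 with EV-IL-1β (-0.82 to 1.39), 0.70 with EV-C5a (-0.35 to 1.75) and -0.22 with EV-Epinephrine (-1.39 to 0.94). These intervals leave room for a change of 2-fold or more in at least one direction in each comparison but lie far below the rise seen with direct TNFα. CCL7 had 0 counts in 9 of the 15 vesicle libraries, at most 4 in any, and 13 in all. Its counts were 1, 0 and 3 in EV-Control, 0, 0 and 2 in EV-TNFα, 0, 0 and 1 in EV-IL-1β, 4, 0 and 0 in EV-C5a and 2, 0 and 0 in EV-Epinephrine.

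Vesicles from TNFα-treated and from IL-1β-treated cells could not be told apart by these transcripts. The log2 differences of EV-IL-1β from EV-TNFα were -0.01 for CCL2 (95% CI -0.53 to 0.50), -0.00 for CCL5 (-0.21 to 0.20), -0.24 for CCL20 (-1.01 to 0.52) and -0.20 for CX3CL1 (-1.23 to 0.84). With edgeR 0 of the 4 tested transcripts passed, 0 had an unadjusted p under 0.05, and 0.00628% of all genes were called. DESeq2 called 0 of them too. The direct log2 differences of IL-1β from TNFα lay outside these intervals, at -1.91 for CCL2, -3.56 for CCL5, -1.24 for CCL20 and -2.48 for CX3CL1. For CCL20 the interval of the direct difference (-1.51 to -0.97) overlapped that of the vesicle difference.

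The EV-Control group itself differed from Control. CCL20 was 5.66-fold higher in EV-Control (95% CI 3.70 to 8.65, edgeR adjusted p = 4.71e-07) and CCL2 1.79-fold higher (1.36 to 2.37, edgeR adjusted p = 0.00269), both without overlap of libraries, as for 34.9% of genes. Of 16691 genes in this comparison 21.9% were called, 12.1% higher and 9.8% lower. Without EV-Control replicate 1, the high library for CCL2, the CCL2 log2 difference was 0.45 (edgeR adjusted p = 0.0130) against 0.84 with it. That of CCL20 was then 2.20 (edgeR adjusted p = 3.75e-08) against 2.50. CCL5 did not pass, at 1.05-fold (95% CI 0.898 to 1.23, edgeR adjusted p = 0.721). CX3CL1 was lower, at 7, 8 and 7 counts against 10, 24 and 18 (log2 difference -1.17 ± 0.40 SE, edgeR adjusted p = 0.0286). The CX3CL1 call was lost without Control replicate 2 or 3 or any 1 of the EV-Control libraries (edgeR adjusted p 0.0628 to 0.208), and the CCL2 call in a fit of the 2 groups alone (edgeR adjusted p = 0.198), in which CX3CL1 had too few counts to be tested. Set beside Control, the CCL20 libraries of EV-TNFα lay just above it, those of EV-IL-1β overlapped its top, and those of EV-Epinephrine overlapped it. These levels against Control were not tested. The direct and vesicle groups each have their own control, and what else differed in their handling is not given in the sources used here.

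For each stimulus the vesicle response was set against the direct response in a fit of all 30 libraries. With TNFα CCL2, CCL5, CCL20 and CX3CL1 all responded less to vesicles than to the cytokine, where 44.7% of genes were called and 23.4% were lower. The log2 difference of responses was -6.11 ± 0.26 (SE) for CCL2, -3.10 ± 0.14 for CCL5, -5.28 ± 0.38 for CCL20 and -6.13 ± 0.62 for CX3CL1. CCL7 had at most 2 counts in an EV-TNFα library against at least 20 in a TNFα library, and no test is given for it. CCL5 was called higher in both settings, while CCL20 was called higher with TNFα and lower with EV-TNFα.

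With IL-1β the difference of responses was -4.20 ± 0.26 for CCL2, -4.28 ± 0.40 for CCL20 and -3.85 ± 0.58 for CX3CL1. CCL5 differed the other way and rose more with the vesicles than with the cytokine, by 0.47 ± 0.15 on the log2 scale (edgeR adjusted p = 0.00968). That call was lost without Control replicate 2 (edgeR adjusted p = 0.0814) or EV-IL-1β replicate 1 (0.0554). In all, 1 of the 4 was higher and 3 were lower, against 35.2% of genes called, 16.9% higher and 18.3% lower. The CCL5 libraries of EV-IL-1β and of EV-TNFα lay above those of direct IL-1β without overlap, a pair of levels that was not tested.

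With epinephrine the responses ran in opposite directions for 3 transcripts, where 24.2% of genes were called, 11.7% higher and 12.5% lower. CCL20 rose with epinephrine and fell with its vesicles, a difference of -5.70 ± 0.43 (edgeR adjusted p = 1.68e-10). CCL2 did the same on a smaller scale, at -2.19 ± 0.28 (edgeR adjusted p = 4.62e-06). CCL5 fell with epinephrine and rose with its vesicles, at 0.96 ± 0.16 (edgeR adjusted p = 2.83e-06). With C5a the direct fall of CCL20 had no counterpart in the vesicle group, a difference of 3.35 ± 0.71 (edgeR adjusted p = 0.00197), and 4.13 without C5a replicate 2. CX3CL1 differed by 1.93 ± 0.59 (edgeR adjusted p = 0.0202), where 11.9% of genes were called, 5.87% higher and 6.05% lower, and this call was lost in a fit of the 4 groups alone (edgeR adjusted p = 0.0723) and without C5a replicate 2, Control replicate 2 or EV-C5a replicate 2 or 3. Without C5a replicate 1 it was 2.52.

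**Figure D3:**
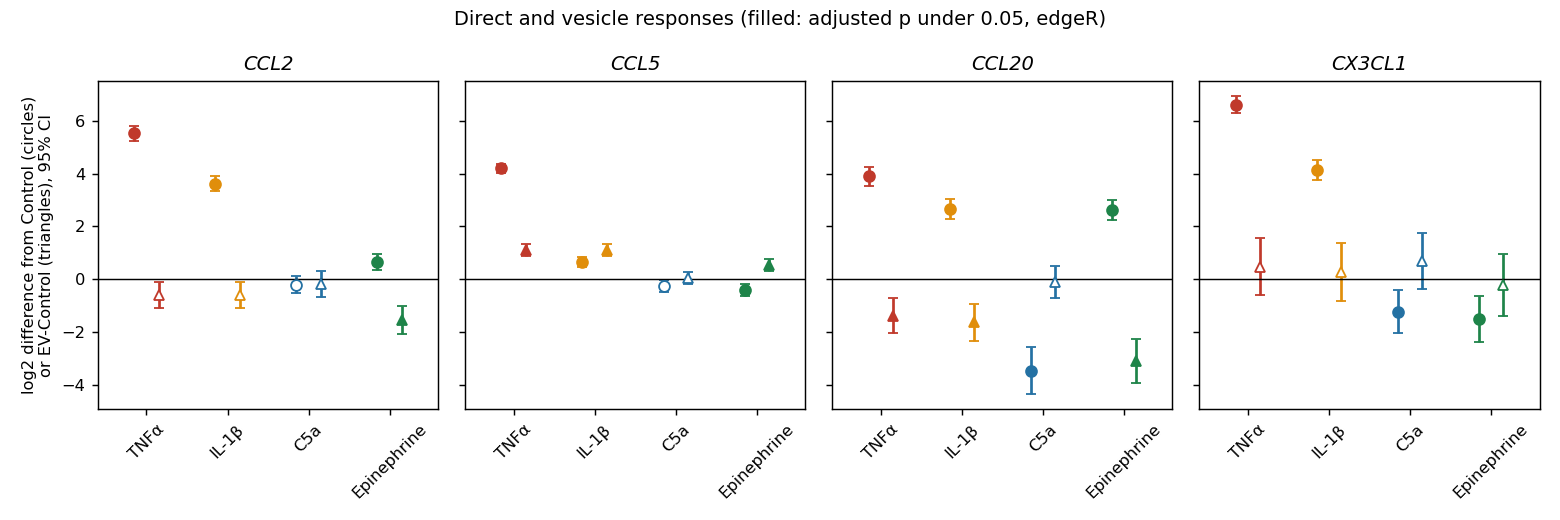
Log2 differences with 95% confidence intervals from Control for direct stimuli (circles) and from EV-Control for vesicles (triangles), filled where the edgeR adjusted p was under 0.05. CCL20 and CCL2 lie on opposite sides of 0 for epinephrine and its vesicles, and CCL5 is called above 0 in 3 vesicle comparisons. CCL7 is not drawn.

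Ranked over all 10 groups, CCL2 ran from 1016 CPM with TNFα and 268 with IL-1β down to 13.7 with EV-Epinephrine. Between those ends EV-Control, EV-C5a and epinephrine overlapped as neighbours, as did EV-TNFα with EV-IL-1β and Control with C5a. CCL5 ran from 158 CPM with TNFα to 19.4 and 19.3 with EV-TNFα and EV-IL-1β, then to 13.3 with IL-1β and 13.0 with EV-Epinephrine, and ended at 6.35 with epinephrine. For CCL20, TNFα stood alone at 23.9 CPM, followed by IL-1β, epinephrine, EV-Control and EV-C5a between 10.1 and 8.35 CPM with overlapping neighbours, and C5a stood alone at the bottom at 0.138 CPM. For CX3CL1 and CCL7 only the 2 cytokine groups stood apart, and every other group overlapped with its neighbour.

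The genes whose mean levels over the 10 groups ran most like each chemokine were taken from 4467 genes that spanned at least 1 on the log2 scale. These are descriptions over 10 group means, which share their controls. For CCL2, CCL7 and CX3CL1 they are set largely by the TNFα and IL-1β groups. CCL5 and CCL20 also varied among other groups. CCL5 stood at 19.4 CPM with EV-TNFα against 13.3 with IL-1β, and CCL20 at 9.76 CPM with epinephrine against 0.138 with C5a. CCL2 ran most like WTAP (Pearson's r = 0.995), SOD2 (0.991) and MRGPRX3 (0.987), and CCL7 most like SLC11A2 (0.995) and the neutrophil attractants CXCL5 (0.990) and CXCL6 (0.982). CXCL5, like CCL7, was higher with IL-1β (67.2 CPM) than with TNFα (27.3 CPM). CCL20 ran most like CXCL3 (0.984), DEPP1 (0.965) and IL6 (0.961), and CX3CL1 most like EBI3 (0.992), C1QTNF1 (0.992) and PSTPIP2 (0.990).

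CCL5 ran most like IFIT2 (0.996), an interferon-induced antiviral gene, PRKD2 (0.984) and APOBEC3F (0.981). IFIT2 stood at 74.9 CPM in Control, 1195 with TNFα and 147 with IL-1β, and at 88.0 in EV-Control, 168 with EV-TNFα, 157 with EV-IL-1β and 115 with EV-Epinephrine. By ranks IFIT2 and CCL5 put the 10 group means in the same order (Spearman's rho = 1), where IFIT2 was the closest of 4467 genes. Part of that order was not resolved. IFIT2 stood at 88.0 CPM in both EV-Control and EV-C5a, and CCL5 libraries overlapped between several neighbouring groups, among them EV-C5a with EV-Control. For CCL20 the rank measure gave CXCL1, CXCL3 and HIF1A, and CCL2, CCL7 and CX3CL1 shared none of their 3 nearest genes between the measures.

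The main receptors of these chemokines were all but absent. CCR2 and CX3CR1 had at most 1 count in a library, and CCR6 had 0 counts in all 30. Of 15 receptors and scavenger receptors 6 could be tested, and 5 of these were higher with TNFα, where 27.5% of all genes were. ACKR4, a scavenger receptor of homeostatic chemokines, rose from 1.30 to 8.08 CPM (log2 difference 2.63 ± 0.23 SE, edgeR adjusted p = 3.35e-12). CCR10 rose from 2.90 to 8.95 CPM (1.62 ± 0.21, edgeR adjusted p = 3.93e-08) and CCR7 from 3.44 to 7.68 CPM (1.15 ± 0.20, edgeR adjusted p = 6.65e-06). ACKR1, which carries inflammatory CC and CXC chemokines across venular endothelium, rose from 1.19 to 2.77 CPM with TNFα (edgeR adjusted p = 0.00243), and CCR4 from 0.613 to 1.54 CPM (edgeR adjusted p = 0.0111). The libraries of ACKR1 overlapped between the groups. With IL-1β ACKR4 rose (1.34 ± 0.25, edgeR adjusted p = 2.46e-05) and CCRL2 fell from 1.95 to 0.980 CPM (-0.98 ± 0.33, edgeR adjusted p = 0.0155). ACKR1, CCR4 and CCRL2 were named after their values were seen. CCR7 was also higher in EV-Control than in Control, at 6.99 against 3.44 CPM (1.02 ± 0.19, edgeR adjusted p = 2.56e-05).

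Of the 24 other CC ligands listed, 22 were in the table, and only CCL28, a mucosal chemokine, had enough counts to be tested. CCL28 stayed between 5.37 and 6.83 CPM in every group and passed in none of the comparisons (lowest edgeR adjusted p = 0.11, for EV-Epinephrine). The 4 further genes of the CCL2 cluster had at most 12 counts in a library (CCL8), 4 (CCL11), 1 (CCL13) and 0 (CCL1). CCL8 was at 0 counts in every Control library and at 0.543 ± 0.256 CPM (SD, n = 3) with TNFα and 0.209 ± 0.138 CPM with IL-1β. CCL22, a ligand of CCR4, was at 0.0176 ± 0.0306 CPM in Control and 0.260 ± 0.149 CPM with TNFα. Both were too rare to be tested and are named after their values were seen.

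Of 23 genes for the cleavage, shedding and surface display of chemokines, 22 were tested in the direct groups. With TNFα 11 were higher and 8 lower, against 27.5% of all genes higher and 25.3% lower. ADAM10 rose from 193 to 274 CPM (log2 difference 0.50 ± 0.04 SE, edgeR adjusted p = 4.44e-12) and ADAM17 from 65.7 to 110 CPM (0.75 ± 0.06, edgeR adjusted p = 2.97e-12), so both sheddases of CX3CL1 rose with it, though by far less. RHBDF2, which brings ADAM17 to the cell surface, rose from 50.7 to 163 CPM (1.68 ± 0.06, edgeR adjusted p = 6.66e-23). These are transcript levels, and a direction of shedding does not follow from them. The protease inhibitor TIMP3 stood at 113 CPM in Control and 234 CPM with TNFα, and RHBDF1 at 63.7 and 46.9 CPM. TIMP3 and RHBDF1 are named after their values were seen, and shedding itself was not measured. CTSS, a protease that can also release CX3CL1, rose from 9.58 to 94.99 CPM (3.31 ± 0.09, edgeR adjusted p = 4.29e-27), and EXT1, an enzyme that polymerises heparan sulfate, from 130.4 to 285 CPM (1.13 ± 0.05, edgeR adjusted p = 7.90e-22). MMP2, which trims CCL7 into an antagonist, fell from 44.4 to 8.18 CPM (-2.43 ± 0.09, edgeR adjusted p = 4.07e-22), and the heparan sulfate proteoglycan SDC1 from 87.8 to 30.1 CPM (-1.54 ± 0.07, edgeR adjusted p = 6.93e-21).

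With IL-1β 7 genes of that list were higher and 10 lower, against 24% and 22.6% of all genes. ADAM10 and ADAM17 did not pass (edgeR adjusted p = 0.66 and 0.314), CTSS rose to 25.9 CPM (1.44 ± 0.09, edgeR adjusted p = 5.26e-15), and MMP2 fell to 15.7 CPM (-1.49 ± 0.09, edgeR adjusted p = 1.44e-16). ADAM17 was slightly lower with C5a (-0.31 ± 0.07, edgeR adjusted p = 6.40e-04) and with epinephrine (-0.18 ± 0.07, edgeR adjusted p = 0.0458). MMP2 was lower with epinephrine, at 21.9 CPM (-1.01 ± 0.08, edgeR adjusted p = 9.15e-12). With vesicles ADAM10 and ADAM17 passed in none of the 4 comparisons with EV-Control.

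Of 28 transcription factors and inhibitors that act at chemokine genes, 24 were higher and 0 lower with TNFα, against 27.5% and 25.3% of all genes, and the median log2 difference of the list was 1.31 against -0.01 over all genes. TNFAIP3, a feedback inhibitor of NF-κB, rose from 65.0 to 1424 CPM (4.45 ± 0.21 SE, edgeR adjusted p = 6.24e-09). TNIP1, its partner, rose from 155 to 1423 CPM (3.20 ± 0.05, edgeR adjusted p = 5.18e-35), and IRF1 from 42.5 to 383 CPM (3.17 ± 0.15, edgeR adjusted p = 4.99e-09). The NF-κB subunits RELB and NFKB2 rose by 2.80 ± 0.10 and 2.45 ± 0.05 (edgeR adjusted p = 7.49e-21 and 5.04e-31).

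With IL-1β 18 were higher and 3 lower, against 24% and 22.6% of all genes, and the median was 0.42 against -0.01 over all genes. TNIP1 rose by 1.81 ± 0.04 and TNFAIP3 by 1.51 ± 0.20 (edgeR adjusted p = 1.59e-27 and 7.21e-05). The AP-1 member JUN rose by 1.12 ± 0.20 (edgeR adjusted p = 7.81e-04), whereas ATF3, a repressor of inflammatory genes, fell from 232 to 50.0 CPM (-2.20 ± 0.19, edgeR adjusted p = 2.75e-06). ATF3 and IRF1 were lower with IL-1β than with TNFα, at -4.00 ± 0.20 and -2.35 ± 0.14 (edgeR adjusted p = 2.02e-08 and 8.77e-08). IRF1 still rose with IL-1β, from 42.5 to 74.8 CPM (0.82 ± 0.15, edgeR adjusted p = 9.11e-04).

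With C5a 2 genes of this list were higher, 13 lower and 13 did not pass, against 11.8% of all genes higher and 10.8% lower. The log2 difference was -2.62 ± 0.20 for ATF3, -2.31 ± 0.17 for the NF-κB cofactor NFKBIZ, -1.92 ± 0.12 for the inhibitor NFKBIA and -1.70 ± 0.23 for TNFAIP3 (edgeR adjusted p = 3.33e-06, 2.84e-06, 4.63e-07 and 2.86e-04). With epinephrine 11 were higher, 4 lower and 13 did not pass, against 13.5% and 11.8% of all genes, led by TNFAIP3 (2.05 ± 0.20), IRF1 (1.14 ± 0.15) and NFKBIZ (1.06 ± 0.15), with edgeR adjusted p = 1.98e-05, 1.98e-04 and 4.38e-04.

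Among vesicle groups the same list was higher in EV-Control than in Control for 15 genes and lower for 0, with a median of 0.46, against 12.1% and 9.8% of all genes. Compared with EV-Control, 13 were lower and 4 higher with EV-TNFα, against 7.42% and 5.9% of all genes. With EV-IL-1β 13 were lower and 4 higher, against 8.14% and 6.49%, and with EV-Epinephrine 18 were lower and 4 higher, against 10.5% and 9.12%. With EV-C5a 0 of 28 passed the edgeR test in either direction, and 3 had an unadjusted p under 0.05. TNFAIP3 stood at 438, 320 and 217 CPM in EV-Control against 67.5, 54.2 and 73.4 in Control. It stood at 94.5, 125 and 116 CPM in EV-TNFα, 102, 109 and 125 in EV-IL-1β, 304, 341 and 407 in EV-C5a and 39.1, 41.3 and 36.6 in EV-Epinephrine. The EV-Control libraries ranked in the same order for TNFAIP3 and CCL20, and REL, an NF-κB subunit, was at 63.8 CPM in EV-Control replicate 1 against 27.1 and 18.6 in the others. IRF1 and NFKBIA also fell from replicate 1 to replicate 3. Other genes of the list ran the opposite way, with NFKBIZ at 385, 427 and 509 CPM, FOSB at 383, 476 and 774 and FOS at 44.2, 105 and 355. Orders of 3 libraries are descriptions only. Without EV-Control replicate 1 the CCL20 log2 difference was -1.08 with EV-TNFα (edgeR adjusted p = 0.00241) and -1.32 with EV-IL-1β (edgeR adjusted p = 3.02e-04). With EV-Epinephrine it was then -2.78 (edgeR adjusted p = 9.84e-09). Any other link of this spread to the CCL20 and CCL2 results was not tested.

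Among the genes of this list that were higher in vesicle groups, where CCL5 was higher too, IRF7 and FOS are named here after their values were seen. The interferon regulator IRF7 was higher with EV-TNFα (0.63 on the log2 scale, edgeR adjusted p = 6.61e-17), EV-IL-1β (0.51, edgeR adjusted p = 2.32e-13) and EV-Epinephrine (0.29, edgeR adjusted p = 1.52e-06). FOS, an AP-1 member, was higher with EV-TNFα (2.04 ± 0.58, edgeR adjusted p = 0.043) and EV-IL-1β (2.22 ± 0.58, edgeR adjusted p = 0.0287), though its EV-Control libraries ran from 44.2 to 355 CPM. IRF1 went the other way and was lower in all 3 groups, at -0.97, -0.97 and -1.38 (edgeR adjusted p = 0.0159, 0.0155 and 0.00152).

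**Figure D4:**
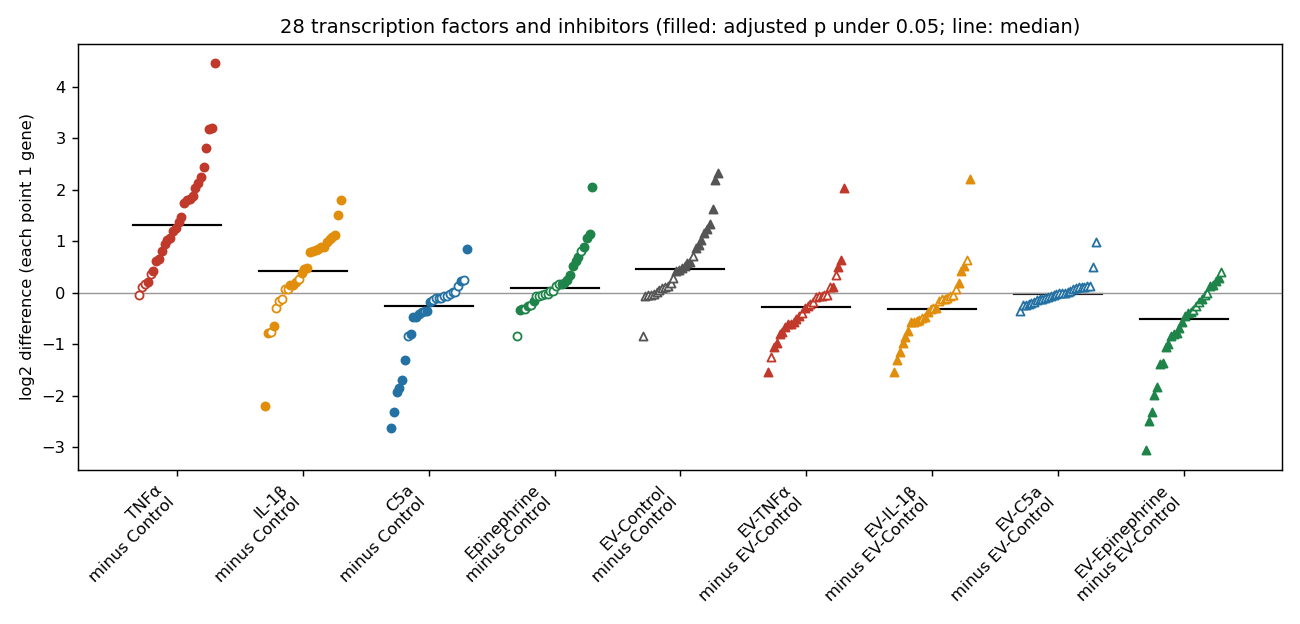
Log2 differences of 28 transcription factors and inhibitors in 9 comparisons, each point 1 gene in order of its value within the comparison, filled where the edgeR adjusted p was under 0.05, with the median as a line. Most of the list lies above 0 with TNFα and in EV-Control against Control, and below 0 in EV-Epinephrine against EV-Control.

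Many chemokine messages carry AU-rich stretches that set their lifetime, and 13 decay and stability factors of such messages were read as well. With TNFα 6 were higher and 0 lower, against 27.5% and 25.3% of all genes. With IL-1β 7 were higher and 2 lower, against 24% and 22.6%, and with C5a 3 were higher and 4 lower, against 11.8% and 10.8%. The endonuclease ZC3H12A rose from 67.7 to 215 CPM with TNFα (1.67 ± 0.09, edgeR adjusted p = 6.03e-12) and fell to 12.9 CPM with C5a (-2.39 ± 0.11, edgeR adjusted p = 1.25e-11). ZFP36, which marks AU-rich messages for decay, fell with C5a (-1.89 ± 0.24, edgeR adjusted p = 2.04e-04) and with IL-1β (-1.49 ± 0.23, edgeR adjusted p = 3.29e-04). With EV-TNFα 2 of the list were higher and 1 lower, against 5.9% and 7.42% of all genes. With EV-IL-1β 2 were higher and 2 lower, against 6.49% and 8.14%, and with EV-Epinephrine 3 and 1, against 9.12% and 10.5%. Of those lower, ZC3H12A was lower in each, at -1.38 ± 0.25, -1.43 ± 0.25 and -1.97 ± 0.26 (edgeR adjusted p = 0.00366, 0.00281 and 2.84e-04). CCL20 was lower there too. The list medians in these 3 comparisons were 0.054, 0.033 and -0.072 on the log2 scale, against -0.00087, -0.0019 and 0.0071 over all genes. Whether these factors bear on CCL20 was not tested. The EV-Control libraries of ZC3H12A were spread, at 193, 127 and 84.7 CPM.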

How the data were processed

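The authors deposited 1 table of raw counts, not normalized, with Ensembl genes in rows and the 30 hCMEC/D3 libraries in columns. The submitters' processing notes name FastQC, STAR, DESeq2, R 4.4.1 and hg38; the counting program, the annotation release and the strand setting are not given in the sources used here. There were 4 lines with an empty gene name, 2 of them with counts (at most 0.00164% of a library), and these were left out. Library totals ran from 16643961 to 22112326 counts, and without molecular identifiers intervals on counts cover counting error only.

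Counts were tested in R 4.3.3 with edgeR 4.0.16 (filterByExpr, TMM scaling, robust quasi-likelihood test, two-sided, Benjamini-Hochberg adjustment over all genes, threshold 0.05), in fits of the 15 direct libraries (15908 genes), the 15 vesicle libraries (15918 genes), and all 30 (16691 genes) for EV-Control against Control and for the differences of responses. This test was run as well on simulated data with known changes, for the direct groups only and with the same spread for every gene. That run does not bear on genes whose libraries spread more, such as CCL2 and CCL20 in EV-Control. CCL7 passed the filter in the direct groups only through TNFα and IL-1β, and did not pass it among vesicle groups, so its fitted differences from controls are not reported; the other 4 passed in each fit.

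The members and gene lists were chosen with earlier results of these data known. The 5 chemokines, ADAM10, ADAM17 and the chemokines' receptors were named regardless, except for genes that are not reported here. A list gene was named at an adjusted p under 0.05, an absolute log2 difference over 1, 5 CPM or more on average in whichever group was higher, and libraries that did not overlap, at most 5 per list and comparison, and the 3 genes most like each chemokine by Pearson's r of group means (log2 CPM, prior count 2). Over all tested genes, samples with the same replicate number did not deviate together. Alternatives tried were DESeq2 1.42.0, relative log expression factors, scaling by totals, no filter, a mean of 50 counts, a replicate block, fits of other groups, and leaving out each library.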

Additional observations from a re-analysis of the deposited data

Results flagged for a closer look

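Each entry here is a test of the difference between the vesicle response and the direct response to one stimulus, in a fit of all 30 libraries, with 3 libraries in each of the 4 groups and an edgeR adjusted p under 0.05. For TNFα the log2 difference (vesicle minus direct) was -6.11 for CCL2, -3.10 for CCL5, -5.28 for CCL20 and -6.13 for CX3CL1. For IL-1β it was -4.20 for CCL2, 0.47 for CCL5, -4.28 for CCL20 and -3.85 for CX3CL1. For C5a it was 3.35 for CCL20 and 1.93 for CX3CL1. For epinephrine it was -2.19 for CCL2, 0.96 for CCL5 and -5.70 for CCL20. Groups of 3 libraries are too small for the rule on single high or low libraries, which was not applied.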

How the results depend on the processing

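Of 981 values of the chemokines under other settings, CCL7 included, 938 kept direction and side of the threshold, 23 lost the call, 4 gained it and 16, all without a call, changed sign. The CCL7 values in this tally include its differences from Control with TNFα and IL-1β and its differences of responses to both. Since CCL7 entered the test only through the groups where it is high, its kept calls are no sign of stability. In fits of only the groups compared, the chemokines called numbered 3 in place of 4 for epinephrine, 1 in place of 2 for EV-TNFα, 2 in place of 3 for EV-Epinephrine, 1 in place of 3 for EV-Control against Control (CX3CL1 was not tested there) and 1 in place of 2 for the C5a difference of responses. With single libraries left out, the number called ran from 1 to 2 for C5a, 2 to 4 for epinephrine and 1 to 2 for the C5a difference of responses.

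Signs changed only with a library left out. Log2 differences then ran from -0.34 to 0.22 (CCL2), -0.018 to 0.11 (CCL5) and -0.38 to 0.19 (CCL20) for EV-C5a, -0.19 to 0.60 for CX3CL1 with EV-IL-1β, -0.74 to 0.063 for CX3CL1 with EV-Epinephrine, and -0.14 to 0.42 for CCL2 in the C5a difference of responses. For EV-IL-1β against EV-TNFα they ran from -0.062 to 0.037 (CCL2), -0.089 to 0.11 (CCL5), -0.45 to 0.12 (CCL20) and -0.67 to 0.12 (CX3CL1).

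Over all genes, EV-C5a gave 8 calls, 73 without a filter, 5 with total counts, 3 in the fit of all 30, the fit of 2 groups or at a mean of 50 counts, and 2 to 175 with a library left out (175 without EV-Control replicate 3). EV-IL-1β against EV-TNFα gave 1 call, 23 without a filter, 3 with total counts, 0 in the fit of all 30, 6 in the fit of 2 groups, and 0 to 3 with a library left out. Scaling by total counts moved the share of higher calls from 52.1% to 22.7% for TNFα, 51.5% to 38.6% for IL-1β, 48.1% to 76.1% for IL-1β against TNFα, 46.4% to 60.2% for EV-Epinephrine, 55.3% to 42.6% for EV-Control against Control, and in the differences of responses from 47.7% to 76.7% (TNFα) and 48.1% to 62.4% (IL-1β). It moved the median of all genes to -0.29 for TNFα and 0.21 for IL-1β against TNFα, and no chemokine's call changed under it. Over all tested genes, same-numbered libraries correlated at -0.050 to 0.059 in their deviations from group means. This does not show whether single genes share an order by replicate number. FOS rose from replicate 1 to replicate 3 in EV-Control, EV-TNFα and EV-Epinephrine, but not in Control, EV-IL-1β or EV-C5a. With a replicate block the chemokines called stayed at 4 for epinephrine and 2 for EV-TNFα, no chemokine's call changed, and EV-IL-1β against EV-TNFα gave 3 calls over all genes. CCL7 had no value at a mean of 50 counts, and the other causes of these changes were not tested.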
